A study of Bos taurus and Bos indicus with 6 samples.

Results

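The genes described here are those named NDUF, which encode subunits and assembly factors of mitochondrial complex I, in circulating white blood cells of cattle. They are the probe sets with exactly 1 gene symbol starting with NDUF. On the array 57 probe sets met this rule, for 42 genes, out of 24016 tested probe sets and 9155 genes with a symbol of their own. Each gene is represented by its probe set with the highest mean over all 6 arrays, a choice that does not use breed. The assembly factor genes NDUFAF1, NDUFAF2, NDUFAF4 and NDUFAF7 were not analysed here.

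The samples came from 3 Brahman (Bos indicus) and 3 Holstein-Friesian (Bos taurus, here Holstein) cattle, every one a female of 6 months under heavy challenge with the cattle tick Rhipicephalus microplus. RNA of the unsorted white cells of jugular blood, left after lysis of the red cells, was hybridised with 1 array per animal. The comparison asks how the leukocyte transcripts of the breeds differ while both carry ticks. Uninfested animals were not analysed here, and breed and any other difference between these animals cannot be told apart. Values are log2 expression after RMA, the authors' background correction, quantile normalisation and probe summary, and differences are Brahman minus Holstein.

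Complex I is the entry point of the respiratory chain. It takes electrons from NADH, passes them along a flavin and a row of iron-sulfur clusters in an arm that reaches into the mitochondrial matrix, and hands them to ubiquinone, while an arm buried in the inner membrane pumps protons. A catalytic core inherited from bacteria is surrounded by accessory subunits, and dedicated assembly factors put the pieces together without staying in the finished enzyme. Genes of the mitochondrial DNA supply the membrane part of the core, and all the genes described here are nuclear. Among blood leukocytes, lymphocytes and monocytes are known to lean on respiration more than neutrophils, which live largely on glycolysis.

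Some white blood cell markers were bright, as the labelled tissue requires, and others were dim. The T cell marker CD28 and the neutrophil marker LTF averaged 5.98 and 5.52 over 6 arrays, under the median of all probe sets (6.59). CD3E, a T cell receptor subunit, averaged 11.46 ± 0.08 in Brahman and 10.92 ± 0.15 in Holstein (SD, n = 3 each). The B cell marker MS4A1 averaged 12.68 ± 0.13 in Brahman and 12.81 ± 0.18 in Holstein, and the neutrophil protein S100A8 averaged 13.58 ± 0.19 in Brahman and 13.60 ± 0.16 in Holstein. Red cell genes were read at mixed levels, and 6 of 7 listed were measured. The haemoglobin gene HBB averaged 9.79 ± 0.31 in Brahman and 9.67 ± 0.70 in Holstein (SD, n = 3 each), a bright signal, while the red cell membrane gene SLC4A1 stood at 4.13 in Brahman and 4.08 in Holstein, under the lower quartile of the array (5.08). The mean over the 6 red cell genes overlapped between the breeds, at 5.90 to 6.01 in Brahman and 5.80 to 6.18 in Holstein. Of the 42 NDUF probe sets, 38 lay above the upper quartile of all probe sets (8.13) and 0 below the lower quartile.

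Nearly all NDUF genes had lower values in Brahman leukocytes, by a small amount each. The difference was negative for 40 of 42 genes, against 44.5% of all tested probe sets and 51.7% of genes when each is represented by its brightest probe set. The median difference was -0.34 over the NDUF genes and 0.02 over all tested probe sets. No gene passed limma's test after Benjamini-Hochberg adjustment over all 24016 probe sets, where 33 probe sets (0.137%) were called. The smallest adjusted p of an NDUF gene was 0.106, for NDUFC2. At an unadjusted p under 0.05, limma gave 26 NDUF genes lower and 1 higher in Brahman, against 6.47% of all tested probe sets lower (9.62% of genes by their brightest probe set) and 7.12% higher. The 3 Brahman arrays all lay below the 3 Holstein arrays for 28 of the 42 genes. This pattern was found in 8.37% of all tested probe sets and 12.2% of genes by their brightest probe set. The reverse order held for 1 NDUF gene, against 11.7% of all tested probe sets. The hybridisation spike-ins of the arrays also separated the breeds, and with their level in the limma model the median was -0.17 and 4 genes were lower at an unadjusted p under 0.05. The 42 genes were read on the same 6 arrays and are not independent replicates of the breed difference.

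**Figure D1:**
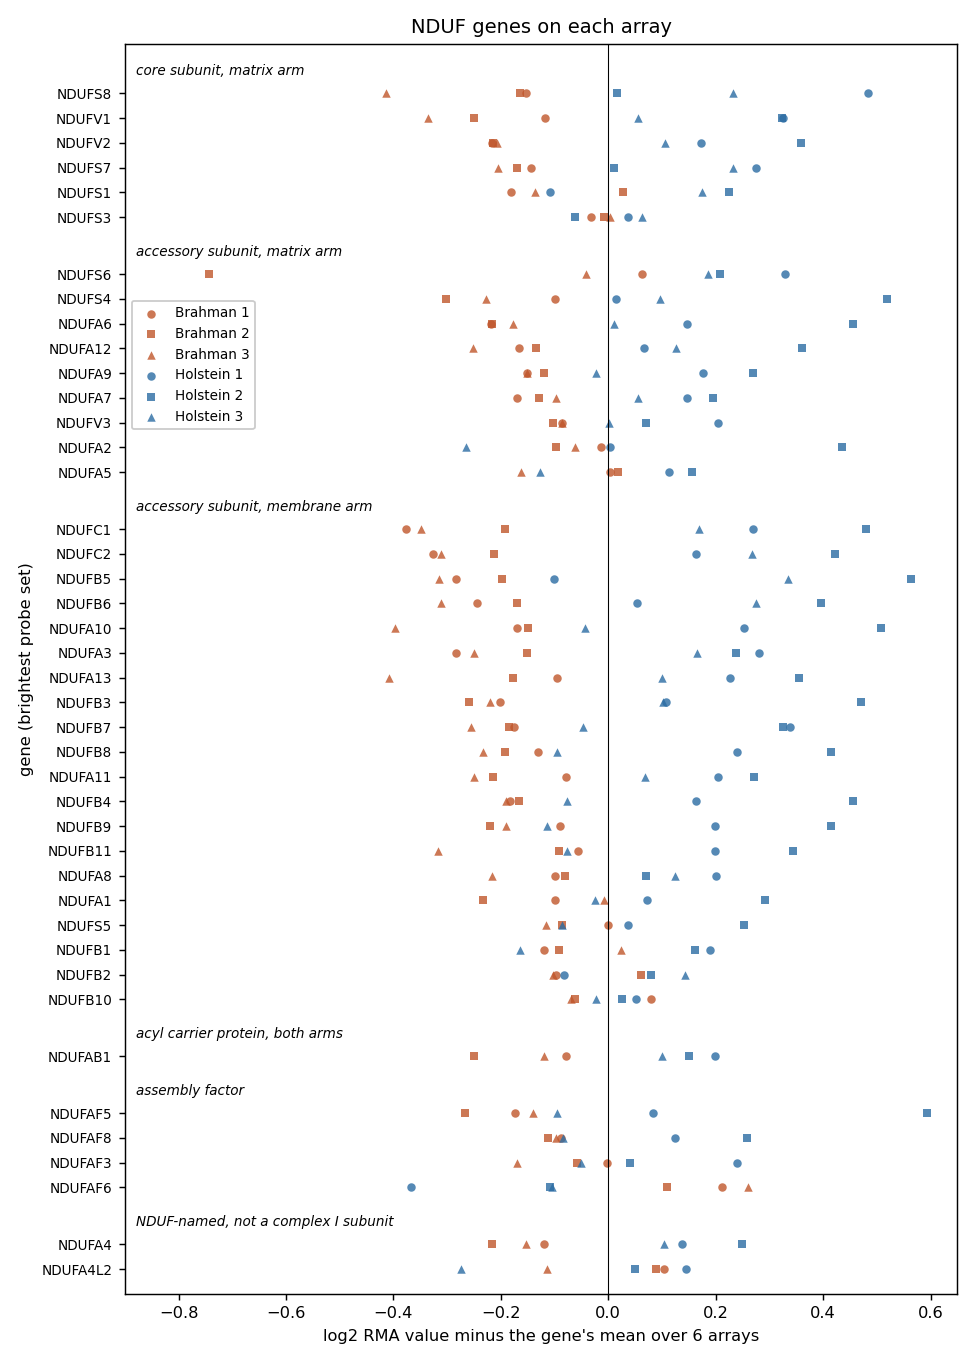
Each row is 1 NDUF gene, grouped by role, and each point is 1 array, placed at its log2 value minus the gene's mean over the 6 arrays. Brahman points lie left of Holstein points in most rows, and in 28 of 42 rows all of them do. In 1 row, NDUFAF6, all Brahman points lie right of the Holstein points, an order found in 11.7% of all tested probe sets.

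Bright probe sets leaned the same way to a far smaller degree. The lower quartile of the NDUF levels was 9.15, and 3067 tested probe sets were at least that bright. Of these, 56.7% had a negative difference, with a median of -0.04, and 11.7% were lower in Brahman at an unadjusted p under 0.05. In 14.9% of them the Brahman arrays all lay below the Holstein arrays.

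The core subunits of the matrix arm include those that carry the flavin and the iron-sulfur clusters, and 6 core subunits are described here. All 6 had negative differences, with a median of -0.39. At an unadjusted p under 0.05, 4 were lower in Brahman, against 9.62% of all genes by their brightest probe set. NDUFV1, which binds NADH and the flavin, read 8.97, 8.84 and 8.75 on the Brahman arrays, against 9.41, 9.41 and 9.14 on the Holstein arrays. Every Brahman value was below every Holstein value, and the difference was -0.47 (SE 0.11, limma adjusted p = 0.183), a Brahman level of 0.722 times the Holstein level. Its partner NDUFV2 read 9.73, 9.73 and 9.74 in Brahman, against 10.12, 10.30 and 10.05 in Holstein. The Brahman animals were almost identical for NDUFV2 and the breeds were 0.31 apart at their nearest arrays (difference -0.42, SE 0.10, limma adjusted p = 0.17).

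NDUFS7 and NDUFS8 hold the last clusters before ubiquinone. NDUFS7 read 9.09, 9.07 and 9.03 in Brahman, against 9.51, 9.25 and 9.47 in Holstein, a difference of -0.35 (SE 0.10, limma adjusted p = 0.235). NDUFS8 read 9.35, 9.34 and 9.09 in Brahman, against 9.99, 9.52 and 9.74 in Holstein, a difference of -0.49 (SE 0.14, limma adjusted p = 0.236). For both genes Holstein 2 was the Holstein array nearest to Brahman, unlike in most other NDUF genes.

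The remaining core subunits overlapped between the breeds. NDUFS1, the largest subunit of the electron-input module, read 9.58, 9.79 and 9.63 in Brahman, against 9.66, 9.99 and 9.94 in Holstein, a difference of -0.19 (SE 0.12). NDUFS3, a core subunit near the ubiquinone site, read 8.998, 9.022 and 9.034 in Brahman, against 9.066, 8.968 and 9.093 in Holstein. Its difference was -0.02, with a 95% interval from -0.22 to 0.17, so the NDUFS3 interval does not reach the differences seen for NDUFV1, NDUFV2, NDUFS7 and NDUFS8. The contrast between core subunits was not itself tested.

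The 9 accessory subunits of the matrix arm all had negative differences, with a median of -0.28. At an unadjusted p under 0.05, 6 of them were lower in Brahman, against 9.62% of all genes by their brightest probe set. In 7 the Brahman arrays all lay below the Holstein arrays, against 12.2% of all genes. NDUFA12, which takes the place of an assembly factor late in assembly, read 10.26, 10.29 and 10.17 in Brahman, against 10.49, 10.78 and 10.55 in Holstein. The breeds did not overlap, and the difference was -0.37 (SE 0.11, limma adjusted p = 0.234). NDUFA7 differed by -0.26 (SE 0.09), with means of 10.54 ± 0.04 in Brahman and 10.80 ± 0.07 in Holstein (SD, n = 3 each). The other members of this group had differences between -0.48 and -0.09. NDUFS6, a zinc-binding subunit, had the most uneven Brahman animals: it read 8.26, 7.46 and 8.16 in Brahman, against 8.53, 8.41 and 8.39 in Holstein, and was chosen for this after its values were seen. Without Brahman 2 the NDUFS6 difference was -0.23, against -0.48 with all arrays.

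The 20 accessory subunits of the membrane arm were all measured, and all had negative differences, with a median of -0.37. Of these, 14 had an unadjusted p under 0.05, and in 13 the breeds did not overlap, with Brahman below. The shares of all genes by their brightest probe set were 9.62% and 12.2%. The group holds the 3 NDUF genes with the smallest p-values, all encoding small proteins that span the inner membrane. NDUFC2 read 10.29, 10.40 and 10.30 in Brahman, against 10.78, 11.04 and 10.88 in Holstein. The gap between the nearest arrays of the breeds was 0.38, the widest of the 42 genes, and the difference was -0.57 (SE 0.10), a Brahman level of 0.674 times the Holstein level. NDUFC1 read 8.76, 8.94 and 8.78 in Brahman, against 9.40, 9.61 and 9.30 in Holstein. Its difference of -0.61 (SE 0.11, limma adjusted p = 0.113) was the most negative of the 42 genes and corresponds to 0.654 times the Holstein level. NDUFA3 read 9.21, 9.34 and 9.25 in Brahman, against 9.78, 9.73 and 9.66 in Holstein, with little spread within either breed (difference -0.46, SE 0.09, limma adjusted p = 0.12).

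Other membrane-arm genes with small p-values showed the same order of breeds. NDUFB6 read 9.071, 9.146 and 9.004 in Brahman, against 9.369, 9.712 and 9.591 in Holstein, and differed by -0.48 (SE 0.11, limma adjusted p = 0.173). NDUFB3, another small membrane subunit, read 9.81, 9.75 and 9.79 in Brahman, against 10.12, 10.48 and 10.11 in Holstein, and differed by -0.45 (SE 0.12, limma adjusted p = 0.208). The Brahman arrays lay close together for both genes, and Holstein 2 stood highest.

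NDUFA13, also known as the cell death regulator GRIM-19, read 10.04, 9.96 and 9.73 in Brahman, against 10.36, 10.49 and 10.23 in Holstein, and differed by -0.45 (SE 0.12, limma adjusted p = 0.202). NDUFA11, a membrane subunit that contacts complex III in the respiratory supercomplex, read 8.84, 8.70 and 8.67 in Brahman, against 9.12, 9.19 and 8.99 in Holstein. It differed by -0.36 (SE 0.10, limma adjusted p = 0.214). Neither gene overlapped between the breeds. At the other end of the group, NDUFB10, chosen after its values were seen, differed by -0.04 with a 95% interval from -0.24 to 0.17.

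NDUFAB1 is the mitochondrial acyl carrier protein, which sits in both arms and also serves fatty acid synthesis in the matrix. It averaged 9.34 ± 0.09 in Brahman and 9.64 ± 0.05 in Holstein (SD, n = 3 each), without overlap, and differed by -0.30 (SE 0.09, limma adjusted p = 0.249).

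The 4 measured assembly factors were mixed, and 0 of them were lower at an unadjusted p under 0.05. NDUFAF6, a factor for an early membrane-arm intermediate, was the 1 NDUF gene with higher values in Brahman on every array. It read 6.10, 6.00 and 6.14 in Brahman, against 5.52, 5.78 and 5.78 in Holstein, a difference of 0.39 (SE 0.11, limma adjusted p = 0.215). NDUFAF6 was the dimmest of the 42 genes, with a mean of 5.89, and no detection calls were used, so its distance from background is not known. NDUFAF5, which hydroxylates an arginine of NDUFS7, differed by -0.39 (SE 0.17), and its Holstein arrays were uneven at 6.90, 7.41 and 6.72, against 6.64, 6.55 and 6.68 in Brahman. NDUFAF8, the partner protein of NDUFAF5, differed by -0.20 (SE 0.11), and NDUFAF3, which acts early on the ubiquinone-binding part, by -0.15 (SE 0.11).

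Of the NDUF names, 2 belong to proteins outside complex I. NDUFA4, once counted as a complex I subunit and now assigned to complex IV, read 11.35, 11.26 and 11.32 in Brahman, against 11.61, 11.72 and 11.58 in Holstein. It did not overlap and differed by -0.33 (SE 0.09, limma adjusted p = 0.213). Its relative NDUFA4L2, a gene induced by low oxygen, averaged 6.69 ± 0.12 in Brahman and 6.64 ± 0.22 in Holstein (SD, n = 3 each), with overlap. The NDUFA4L2 difference was 0.05 (SE 0.13). The 36 structural subunits of complex I taken alone all had negative differences, with a median of -0.36. Of these, 25 had an unadjusted p under 0.05, against 9.62% of all genes lower in Brahman by their brightest probe set.

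**Figure D2:**
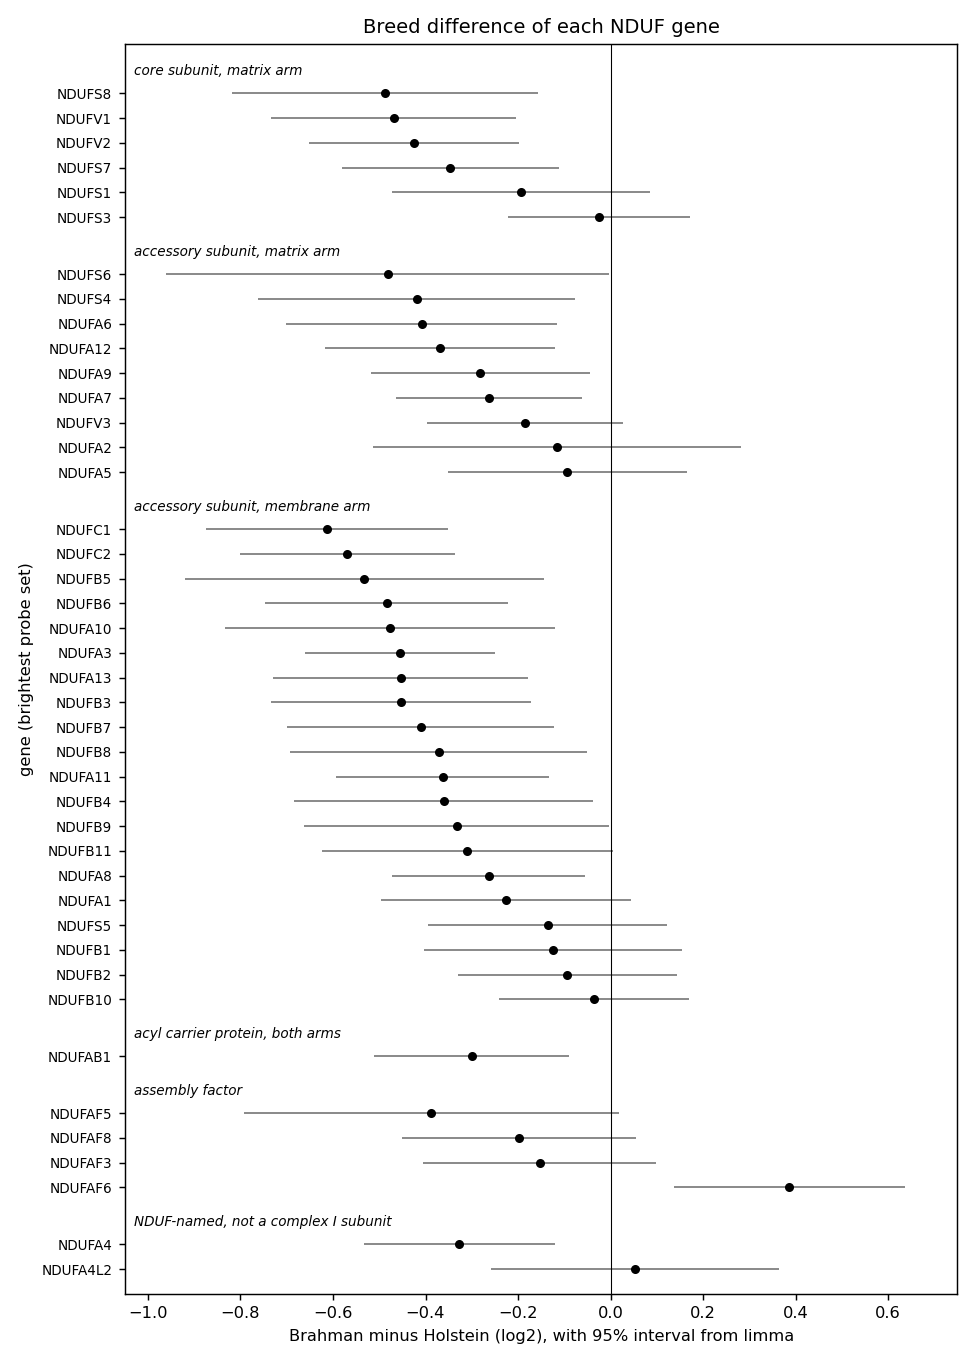
Points are the Brahman minus Holstein differences of the 42 NDUF genes on the log2 scale, grouped by role, and bars are 95% intervals from limma, not adjusted for the number of genes. All structural subunits lie left of 0, NDUFAF6 lies right of it at 0.39, and the intervals of 26 genes on the left do not reach 0.

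Where a gene had several probe sets, the dimmer ones often did not follow the brightest. This applied to 12 genes with 15 further probe sets, of which 8 had negative and 7 positive differences. Of these 15, 5 averaged under the lower quartile of the array. The second NDUFA5 probe set read 8.21, 8.17 and 7.99 in Brahman, against 8.69, 8.91 and 8.73 in Holstein. It differed by -0.65 (SE 0.11, limma adjusted p = 0.0936), where the brighter probe set of NDUFA5 gave -0.09 (SE 0.11). The second probe set has a smaller p than any of the 42 used, and was chosen after its value was seen. NDUFA5 is an accessory subunit of the matrix arm, and which of its probe sets measures the transcript better was not tested.

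The brighter probe sets of NDUFB2 and NDUFAF3 likewise differed less than their second ones, and these genes too were chosen after their values were seen. NDUFB2 differed by -0.09 (0.01 with the spike-in covariate) and -0.32, and NDUFAF3 by -0.15 and -0.37. For NDUFS1 the used probe set gave -0.19, a dimmer one -0.32 (limma adjusted p = 0.216) and the other 0.09, at a mean level of 3.91.

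In NDUFA11, NDUFA7 and NDUFAB1 the second probe set had the opposite sign. Its differences were 0.12, 0.17 and 0.29 at mean levels of 6.35, 5.09 and 5.16, with SEs of 0.10, 0.11 and 0.18. NDUFS3 also had opposite signs, with 0.36 (SE 0.17) on its dimmer probe set. None of these positive differences had an unadjusted p under 0.05 in limma.

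**Figure D3:**
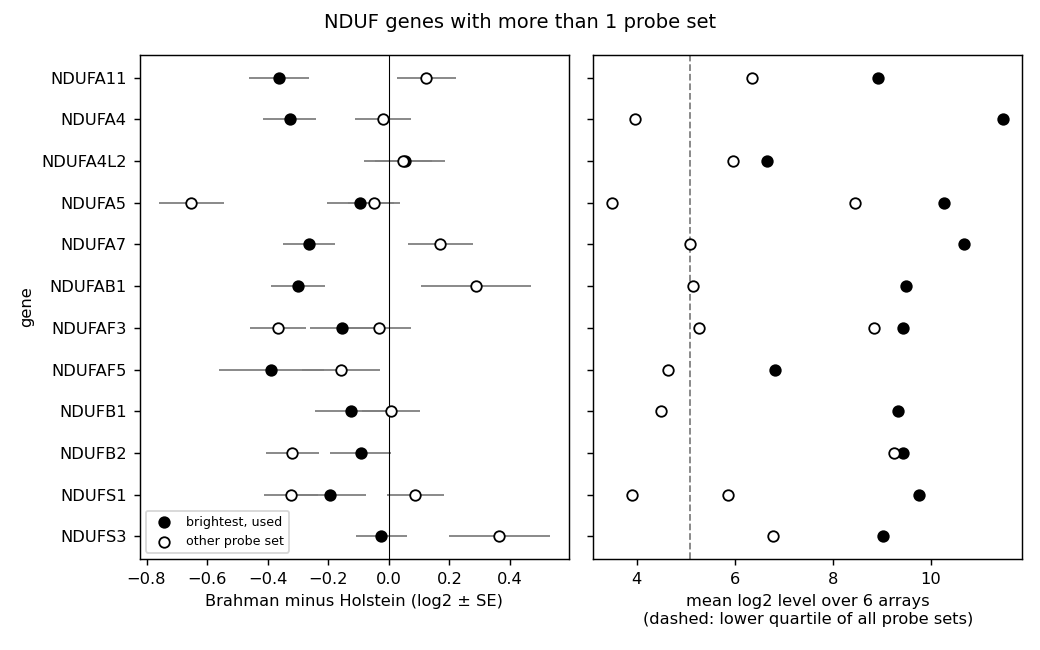
For the 12 NDUF genes with more than 1 probe set, the left panel gives each probe set's Brahman minus Holstein difference (log2, bars are SE) and the right panel its mean log2 level over 6 arrays, with the lower quartile of all probe sets dashed. Filled points are the brightest probe sets, and the open point furthest left is the second NDUFA5 probe set at -0.65.

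The arrays of a breed were not alike in how far they stood from the other breed. The mean over the 42 genes was 9.44, 9.40 and 9.38 on Brahman 1, 2 and 3, against 9.70, 9.83 and 9.59 on Holstein 1, 2 and 3. Holstein 2 had the highest value of all 6 arrays for 26 genes, and Holstein 3 had the lowest Holstein value for 30 genes. Brahman 3 had the lowest value of all arrays for 19 genes. The median SD within a breed was 0.07 in Brahman and 0.16 in Holstein, and the Holstein SD was the larger in 36 of 42 genes, against 63.5% of all tested probe sets.

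Leaving out 1 array at a time moved the median difference between -0.41 without Holstein 3 and -0.26 without Holstein 2. The count of genes lower in Brahman at an unadjusted limma p under 0.05 ran from 19 without Brahman 3 to 28 without Holstein 3. In all 6 of these fits 38 of the 42 genes kept a negative difference, and 17 were lower at an unadjusted p under 0.05 in all 6. These 17 include NDUFC1, NDUFC2, NDUFA3, NDUFV1, NDUFV2, NDUFS7 and NDUFS8.

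Some control and marker measures of the arrays separated the breeds as well, and others overlapped. The 18 hybridisation spike-in probe sets averaged 9.64, 9.71 and 9.80 on Brahman 1, 2 and 3, against 9.94, 10.38 and 10.10 on Holstein 1, 2 and 3. The actin 3′ minus 5′ difference, a sign of RNA length, was 1.70, 1.64 and 1.72 in Brahman, against 1.73, 1.98 and 1.88 in Holstein. In the actin measure the nearest arrays of the breeds, Brahman 3 at 1.72 and Holstein 1 at 1.73, almost met. The same measure for GAPDH overlapped, at -0.075, -0.13 and -0.08 in Brahman, against 0.03, 0.24 and -0.12 in Holstein, as did that for eIF4E, at 1.88, 1.64 and 1.96 in Brahman, against 1.98, 1.88 and 2.03 in Holstein. Holstein 2 was highest in the spike-in level and the actin measure, as it was in the NDUF mean. Within Holstein the next in order differed, since Holstein 3 exceeded Holstein 1 in these 2 controls and lay below it in the NDUF mean. Within Brahman, the spike-in level was lowest on Brahman 1, which had the highest NDUF mean of its breed.

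With the spike-in level added to the limma model, the median NDUF difference was -0.17 and 35 of 42 genes had a negative difference, against 48.8% of all tested probe sets in that fit. Only 4 genes were lower at an unadjusted p under 0.05, NDUFA3 (-0.47), NDUFA8 (-0.41), NDUFS7 (-0.60) and NDUFS8 (-0.95), against 4.42% of all tested probe sets. Of the 40 genes with a negative difference without the covariate, 29 were less negative or positive with it and 11 more negative. Among the genes of smallest p, NDUFB3 moved to -0.13 with the covariate, against -0.45 without it. NDUFA12 gave -0.14 against -0.37 without it, NDUFB6 -0.23 against -0.48, NDUFV2 -0.24 against -0.42, NDUFC2 -0.35 against -0.57 and NDUFC1 -0.40 against -0.61. The positive difference of NDUFAF6 was larger, 0.60 against 0.39 without the covariate, and again passed only the unadjusted threshold. The spike-in level does not overlap between the breeds, so its part and that of breed cannot be fully told apart on 6 arrays.

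Of 12 T cell markers 11 were measured, and 10 had positive differences. The mean level of the 11 was 9.96 to 10.13 on the Brahman arrays and 9.57 to 9.72 on the Holstein arrays. The transcription factor LEF1 (0.96) and the CD40 ligand gene CD40LG (0.74) had the smallest p-values there, and TCF7 differed by 0.85. Of 7 NK and cytotoxic markers 6 had positive differences, and the mean over all 7 was 8.17 to 8.83 in Brahman and 7.85 to 8.05 in Holstein. In 2 of these 7, and in 8 of the 11 T cell markers, the Brahman arrays all lay above the Holstein arrays. This pattern was found in 11.7% of all tested probe sets. The positive differences of NCR1 (0.09), GNLY (0.09) and NKG7 (2e-04) were small, and KLRK1 (0.78) overlapped between the breeds. The granule protease GZMB in this list was higher in Brahman, with 9.70 ± 0.25 in Brahman and 7.19 ± 0.54 in Holstein (SD, n = 3 each). Its difference was 2.51 (limma adjusted p = 0.0264), and it was the 1 marker called. The NK receptor KLRD1 differed by 0.90, and the pore-forming protein gene PRF1, chosen after its value was seen, by -0.60. Of 8 B cell markers 4 were measured, 2 with positive differences, and their mean was 10.19 to 10.36 in Brahman and 9.90 to 10.12 in Holstein. The B cell kinase BLK differed by 0.97 and the complement receptor CR2 by 0.35. CD79A and MS4A1 differed by -0.23 and -0.14, with overlap between the breeds. The means of the NK and cytotoxic and B cell lists were not computed without GZMB or BLK, the largest difference of each.

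The other marker means overlapped between the breeds. Of 7 listed monocyte markers 5 were measured, 3 with negative differences, and their mean level was 8.26 to 8.52 in Brahman and 8.35 to 8.80 in Holstein. VCAN (0.92) and CD14 (-0.94) had the smallest p-values there, with opposite signs. Neutrophil markers (7 of 10 measured) had mean levels of 9.64 to 10.04 in Brahman and 9.54 to 9.79 in Holstein, with ALPL at 1.42 and S100A12 at -0.41. The single eosinophil marker measured, CCR3, differed by 0.07, and the platelet genes PF4 and ITGA2B by -0.60 and 0.10. The red cell genes ALAS2 and HBA differed by -0.56 and -0.14. The other 4 of the 6 measured red cell genes had positive differences, and the median over all 6 was 0.03. The part of these cell types in the NDUF difference was not tested, and in unsorted leukocytes fewer cells of a type and less RNA per cell cannot be told apart.

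**Figure D4:**
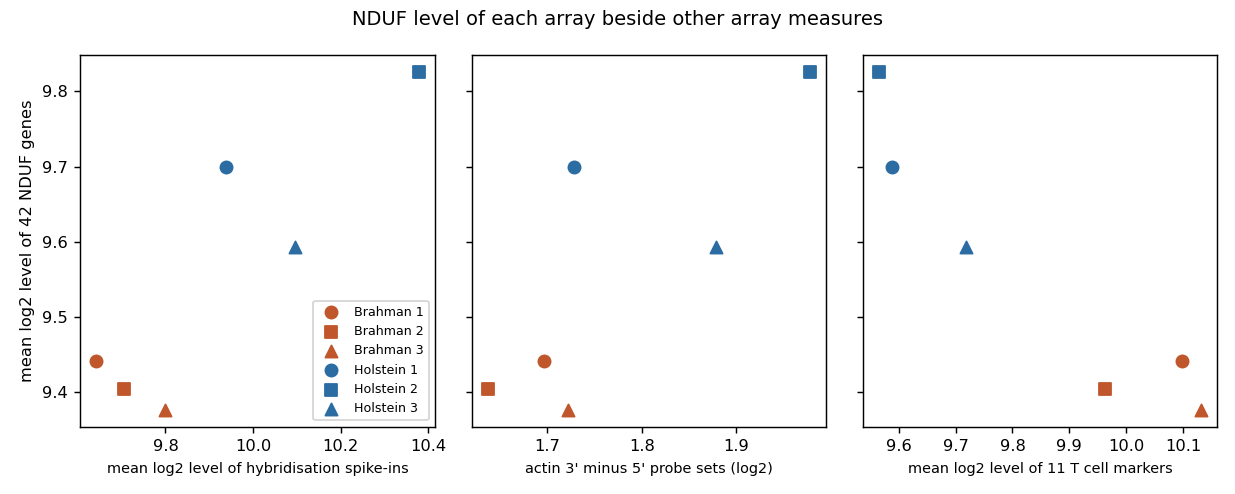
Each point is 1 array, with the mean log2 level of the 42 NDUF genes on the vertical axis and, from left to right, the spike-in level, the actin 3′ minus 5′ difference and the mean of 11 T cell markers on the horizontal axes. The Holstein arrays are higher than the Brahman arrays in the NDUF mean, the spike-in level and the actin measure, and lower in the T cell markers.

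Some genes help build complex I without an NDUF name. Of 13 such genes 8 were measured, 6 of them with negative differences, the median was -0.10, and 2 were lower at an unadjusted p under 0.05. TMEM126A, an inner membrane assembly protein, differed by -0.41 (SE 0.10, limma adjusted p = 0.174), and ECSIT, which binds NDUFAF1 and also takes part in Toll-like receptor signalling, by -0.32 (SE 0.11, limma adjusted p = 0.281). For ACAD9, a partner of ECSIT in assembly, the difference was 0.02.

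Subunits and assembly factors of complexes II to V had values close to those of the NDUF genes. All 43 measured genes had negative differences, with a median of -0.29, and 25 had an unadjusted p under 0.05. The breeds did not overlap for 28 of the 43, a share of 65.1%, with Brahman below, beside 66.7% of the NDUF genes. Of all genes by their brightest probe set, 9.62% were lower in Brahman at an unadjusted p under 0.05. In 12.2% of them the Brahman arrays all lay below the Holstein arrays. Among the 3067 bright probe sets these shares were 11.7% and 14.9%. The succinate dehydrogenase subunits SDHB and SDHA differed by -0.47 and -0.295, the complex III subunits UQCRB and UQCR11 by -0.48 and -0.43, the complex IV subunits COX7C and COX7A2 by -0.30 and -0.41, and the ATP synthase subunits ATP5F1B and ATP5PO by -0.46 and -0.40. No test set complex I against the other complexes.

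**Figure D5:**
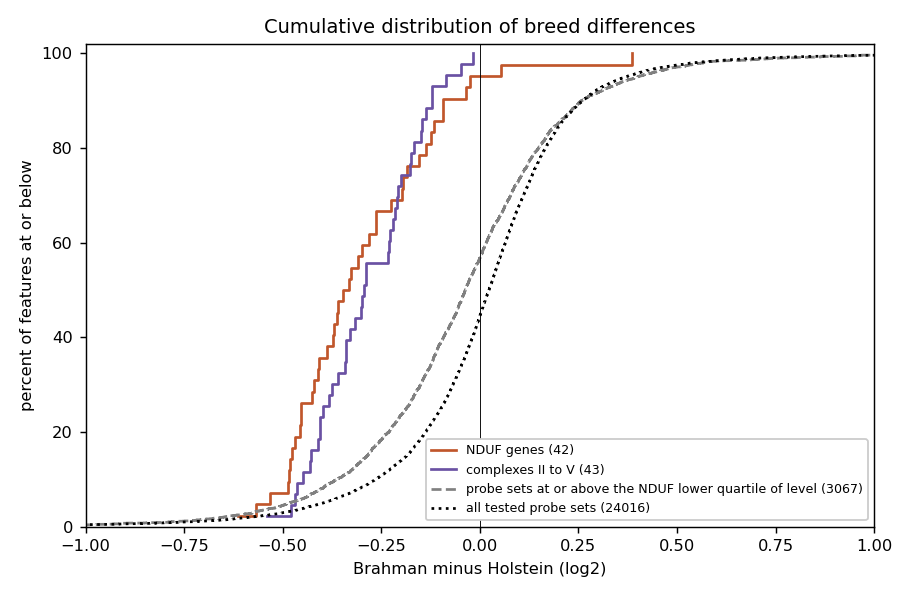
Curves give the percent of features at or below each Brahman minus Holstein difference (log2) for the 42 NDUF genes, the 43 genes of complexes II to V, the 3067 probe sets at or above the lower quartile of NDUF levels, and all 24016 tested probe sets. The respiratory chain curves lie close together and left of the others, with medians of -0.34 and -0.29 against -0.04 and 0.02.

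Neighbouring pathways had differences of both signs. Of 9 measured genes for the synthesis of ubiquinone, the electron acceptor of complex I, 7 had negative differences, with a median of -0.22. PDSS1 and COQ5, enzymes for its side chain and ring, had the smallest p-values there, with differences of -0.64 and -0.44. Of 7 measured regulators of mitochondrial gene expression 5 had negative differences, with a median of -0.03. TFB1M, a methyltransferase of mitochondrial ribosomal RNA, differed by -0.65 (SE 0.20, limma adjusted p = 0.254) and the mitochondrial RNA polymerase gene POLRMT by -0.25. NRF1, a transcription factor of nuclear respiratory genes, differed by 0.09, and the coactivator PPARGC1A averaged 4.89 in Brahman and 4.91 in Holstein, under the lower quartile of the array. Genes for other routes of electrons and for supercomplexes had a median of 0.02 over 4 genes, among them the glycerol phosphate dehydrogenase GPD2 at 0.53 (SE 0.27) and DHODH, the pyrimidine synthesis enzyme that also feeds ubiquinone, at -0.11. None of the 28 genes of these neighbouring lists and the non-NDUF assembly list was called.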

How the data were processed

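The deposited table holds log2 expression values that the authors computed with RMA, as the submitters' processing notes say (version not given in the sources used here). The log2 scale is read from the range of the values, 2.89 to 14.45. Its 24128 probe sets include 112 array controls, which were left out of the tests. Quantile normalisation makes arrays comparable and would remove a global change. Scanner intensities and detection calls were not used here. With 3 arrays per breed, precision is low.

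Gene symbols came from the platform annotation. Brahman was compared with Holstein in limma 3.58.1 (R 4.3.3; lmFit, then eBayes), fitting breed alone. The Benjamini-Hochberg adjustment of its two-sided p-values ran over 24016 probe sets, and a call needs an adjusted p under 0.05. The pipeline was tested on simulated data. Replicates are separate animals of a breed, per the series' design text.

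The members, gene lists and tests were chosen with earlier results of these data known, and no list was tested as a set. Genes named with values were the 12 NDUF genes with the smallest p, the core subunits, assembly factors, genes outside complex I, positive differences and genes whose probe sets disagree in sign with either at an unadjusted p under 0.05, plus the 2 of smallest p and any called gene in other lists. Genes named outside this rule illustrate a range, an array or an alternative.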

Additional observations from a re-analysis of the deposited data

How the results depend on the processing

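Under all 17 alternatives 0 of the NDUF genes were called by limma, and the smallest adjusted p of any of them ran from 0.0851 with 1 probe set per gene tested to 0.358 with the spike-in covariate. At an unadjusted p under 0.05, 26 genes were lower in Brahman in the main analysis and 4 with the spike-in covariate, where the median difference was -0.17 against -0.34. Leaving out single arrays gave medians from -0.41 to -0.26, counts from 19 to 28, and 5 to 55 called probe sets over the whole array, which had 33 with all arrays. That array-wide count was 0 with the spike-in covariate, 10 with the replicate block, 15 with 1 probe set per gene and 13 with the mean over all probe sets of a gene. With the replicate number as a block, the count of NDUF genes lower at an unadjusted p under 0.05 was again 26. Deviations of same-numbered animals correlated at 0.11, -0.04 and -0.07, beside -0.09 to 0.12 for animals of unlike number. With 3 animals per breed these values cannot decide whether the numbers pair the animals. Of the 22 genes chosen by the naming rule, 4 changed sign under some alternative, each without a call. NDUFS3 was 0.0196 with repeated quantile normalisation, 0.17 with the mean over its probe sets and -0.0615 to 0.0013 without single arrays. NDUFA4L2 was -0.0351 with the spike-in covariate and -0.0716 to 0.138 without single arrays, and NDUFS1 (0.071) and NDUFAF5 (0.12) changed sign with that covariate, as did NDUFB2 (0.0115), NDUFA1 (0.0223), NDUFS5 (0.0483) and NDUFA2 (0.307) among the other genes. The cause of these changes was not tested. Dim probe sets limit what can be read for NDUFAF6.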
